A study of Homo sapiens with 6 samples.

Results

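Chromatin accessibility was examined at 10 genes of the epithelial-mesenchymal transition, the transcription factors ZEB1, ZEB2, SNAI1, SNAI2, TWIST1 and TWIST2, the cytoskeletal and adhesion genes VIM and CDH2, and the matrix genes FN1 and SPARC. They were chosen by name, by a rule that uses no measured value but with earlier results of these data known, from 20098 protein-coding genes of the autosomes and chromosome X. ATAC-seq peaks counted for a gene when they overlapped its annotated body (hg19) extended by 50 kb to each side. A peak within 3 kb of an annotated transcription start of the gene was called a promoter peak and any other a distal peak. Of all the peaks in the 6 libraries, 21 met this rule, 5 of them promoter and 16 distal.

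ATAC-seq uses the Tn5 transposase to cut accessible DNA, so that open sites collect more fragments than their surroundings. The study profiled 2 esophageal squamous cell carcinoma (ESCC) lines, KYSE-30 (libraries 4 and 6) and KYSE-150 (libraries 7 and 8), and HET-1A (libraries 1 and 2), a non-cancerous line from esophageal epithelium, all untreated established human cell lines. KYSE-30 and KYSE-150 were grown in RPMI/F12 with serum and HET-1A in BEBM with its additives, so that line and medium cannot be told apart, and each condition is a single line with 2 libraries that the study calls biological replicates. The lists were of very unequal length, from 168 peaks (HET-1A library 1) to 15979 (HET-1A library 2). KYSE-30 had 1255 (library 4) and 11671 (library 6), and KYSE-150 had 547 (library 7) and 259 (library 8). HET-1A library 2 and KYSE-30 library 6 are called the long lists here.

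In this transition, epithelial cells lose their junctions and polarity and gain migratory, mesenchymal traits. ZEB1, ZEB2, SNAI1 and SNAI2 encode zinc-finger repressors that bind E-boxes in the promoters of epithelial genes such as CDH1, while TWIST1 and TWIST2 encode basic helix-loop-helix factors. VIM encodes the intermediate filament vimentin and CDH2 encodes N-cadherin, whereas FN1 and SPARC encode the matrix proteins fibronectin and osteonectin. TGF-beta signalling through SMAD proteins is a classical inducer of these genes, and in carcinomas the program is associated with invasion.

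The sequences under 4 of the member peaks are shown, namely a promoter peak of KYSE-30, the highest distal peak of HET-1A and of KYSE-30, and a further region called in both of the long lists. They are from the plus strand of hg19, 5′ to 3′, with at most 300 bases around the summit. Capitals mark the motifs searched on both strands, namely the E-box CAGGTG (reverse CACCTG), the AP-1 site TGANTCA, the TEAD site GGAATG (reverse CATTCC) and the GC box GGGCGG (reverse CCGCCC). For VIM the stretch outside annotated UTRs of the weaker promoter peak is given, because too little of the stronger one lies outside UTRs. This VIM stretch comes from inside the gene body, close to an internal transcript start. Its summit lay 1.59 kb downstream of the 5′ end of the gene and 0.176 kb upstream of an internal transcript start.
VIM promoter, KYSE-30 library 6, chr10:17271806-17272002: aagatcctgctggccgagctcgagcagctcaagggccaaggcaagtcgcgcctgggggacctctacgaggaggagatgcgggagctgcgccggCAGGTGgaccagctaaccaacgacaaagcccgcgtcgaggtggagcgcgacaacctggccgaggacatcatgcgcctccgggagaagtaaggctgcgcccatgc
Upstream of ZEB2, HET-1A library 2, chr2:145311030-145311329: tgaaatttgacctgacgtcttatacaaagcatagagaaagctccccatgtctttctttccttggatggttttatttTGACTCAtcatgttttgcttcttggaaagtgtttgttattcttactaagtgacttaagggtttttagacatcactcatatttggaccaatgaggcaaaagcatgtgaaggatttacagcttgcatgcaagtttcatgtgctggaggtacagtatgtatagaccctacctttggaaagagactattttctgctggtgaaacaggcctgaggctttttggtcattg
TWIST2 intron, both long lists, chr2:239772884-239773183: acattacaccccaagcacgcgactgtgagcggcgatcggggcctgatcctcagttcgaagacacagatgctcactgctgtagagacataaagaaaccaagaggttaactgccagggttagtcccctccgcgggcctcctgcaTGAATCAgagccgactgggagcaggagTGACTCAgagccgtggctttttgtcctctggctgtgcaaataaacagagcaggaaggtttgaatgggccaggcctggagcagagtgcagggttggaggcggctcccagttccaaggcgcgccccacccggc
Downstream of TWIST2, both long lists, chr2:239870097-239870396: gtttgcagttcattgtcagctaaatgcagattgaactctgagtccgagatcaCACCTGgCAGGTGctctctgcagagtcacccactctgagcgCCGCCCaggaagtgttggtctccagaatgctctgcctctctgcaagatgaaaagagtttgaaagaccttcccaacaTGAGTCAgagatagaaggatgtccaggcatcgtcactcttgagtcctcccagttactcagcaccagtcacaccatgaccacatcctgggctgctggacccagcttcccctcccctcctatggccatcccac
The VIM sequence carried an E-box, and the ZEB2 sequence a single AP-1 match. The TWIST2 intron held 2 AP-1 matches, and the region downstream of TWIST2 held 2 E-boxes 1 base apart in opposite orientation, a GC box and an AP-1 match.

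The 21 member peaks were split over HET-1A library 2 (10), KYSE-30 library 6 (10) and KYSE-30 library 4 (1), and the remaining 3 libraries had none. In those 3 few genes of any kind had a peak within 50 kb, namely 0.980% of all protein-coding genes for HET-1A library 1, 5.78% for KYSE-150 library 7 and 2.01% for KYSE-150 library 8. A share of 0 of 10 members has a Wilson 95% interval up to 27.8%. Apart from the SNAI2 peak of KYSE-30 library 4, values for HET-1A and KYSE-30 therefore rest on 1 library each, and for KYSE-150 there are none. List length did not follow the smallest local background of a library, in tags per 200 bp, at 2.80 and 2.64 for KYSE-150 but 1.49 for KYSE-30 library 6, and what set the length of the lists was not tested. With 2 libraries a line, an exact two-sided permutation test cannot go under p = 0.33, and no test between lines was run.

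At least 1 peak was found at 6 of the 10 members in HET-1A library 2 (Wilson 95% interval 31.3 to 83.2%), against 68.8% of all protein-coding genes. The count for KYSE-30 library 6 was also 6 of 10, against 60.9% of all protein-coding genes, and for KYSE-30 library 4 it was 1 of 10 (1.79 to 40.4%), against 12.5%. The members' shares thus lay near the background in each of these libraries. Of the long lists, both had a peak at ZEB2, TWIST2, FN1 and SPARC, only that of HET-1A at SNAI1 and SNAI2, only that of KYSE-30 at TWIST1 and VIM, and neither at ZEB1 and CDH2. Over the 1.91 Mb of member windows both long lists had 5.25 peaks per Mb, where the windows of all protein-coding genes held 7.29 (HET-1A) and 5.22 (KYSE-30) peaks per Mb.

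**Figure D1:**
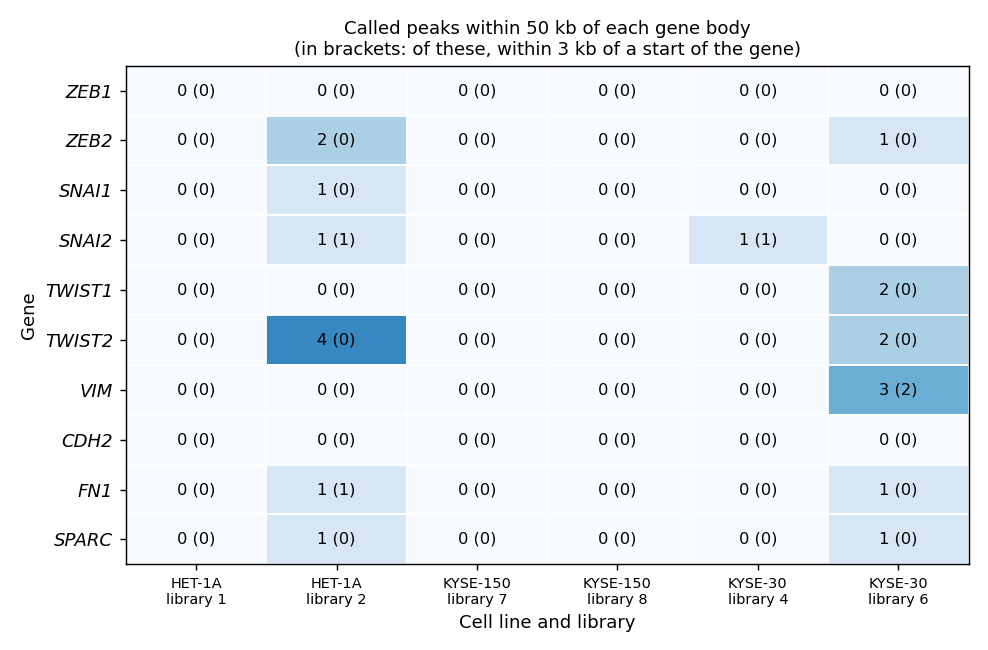
Number of promoter and distal peaks called at each of the 10 members (rows) in each of the 6 libraries (columns). Of the 21 peaks 20 belong to the long lists, 10 to each, and the rows of ZEB1 and CDH2 are empty.

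Promoter peaks were fewer. SNAI2 and FN1 had one in HET-1A library 2 (2 of 10, 5.67 to 51.0%), while 35.5% of all protein-coding genes had one. Only VIM did so for KYSE-30 library 6 (1 of 10, 1.79 to 40.4%), beside 28.8% of all genes, and only SNAI2 for KYSE-30 library 4, beside 3.89%. The other libraries had none, where the share of all genes was 0.0945% (HET-1A library 1), 1.80% (KYSE-150 library 7) and 0.363% (KYSE-150 library 8). The intervals of the members include the background in the long lists.

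Most members have the CpG-rich type of promoter that tends to be open across cell types. In the 1000 bp at the 5′ end of the gene, the ratio of observed to expected CpG was at least 0.6 in 8 of 10 members, from 0.650 at FN1 to 0.987 at CDH2. It was 0.323 at ZEB2 and 0.296 at SPARC. Other starts were not measured, and ZEB2 has 46 annotated starts over 125 kb and SPARC 8 over 19.4 kb. Of all protein-coding genes past this ratio, 46.1% had a promoter peak in the long list of HET-1A and 38.5% in that of KYSE-30. Of the 8 members past it, 2 and 1 had one, and counts this small do not set the members apart from those shares. ZEB1, SNAI1, TWIST1, TWIST2 and CDH2, all CpG-rich, had no promoter peak in any of the 6 libraries.

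For each peak the lists give a fold enrichment, which is the number of tags at the summit plus 1 over the local background plus 1. The tags and the background, in tags per 200 bp, were recovered from it and the Poisson p-value. Dividing the local background by the smallest of the library gives a relative background, which is 1 where the surroundings are as sparse as the genome at large. At that level the weakest peak called had 12 tags (HET-1A library 2) or 8 tags (KYSE-30 library 6), with folds of 2.99 and 3.62. A site at that level and below these values was not listed. In the other 4 libraries the weakest peak at that level had 10 to 13 tags. On a higher local background a listed fold could be lower, as at a TWIST2 peak of HET-1A library 2 (2.62). Folds are compared within a library only, since the libraries differ in depth and background.

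ZEB2 had distal peaks only. The higher of its 2 peaks from HET-1A library 2 stood 32.6 kb upstream of the gene, in an intron of the non-coding LINC01412, with 22 tags over a background of 3.40, a fold of 5.23 and a q-value of 1.07e-08. Only 21.0% of the peaks in that library had a higher fold. The other, at chr2:145089985-145090243, with a fold of 4.65, lay 0.0160 kb from a start of the neighbouring gene GTDC1 and is thus that gene's promoter peak.

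In KYSE-30 library 6 the single ZEB2 peak, chr2:145115518-145115802, lay in intergenic sequence 6.13 kb beyond the 3′ end of the gene. It had 17 tags over a background of 1.52, a fold of 7.14 and a q-value of 4.90e-10, and 17.3% of the peaks in that library were higher. The ZEB2 peaks of the long lists did not overlap, and each of these 3 peaks stood on a relative background of 1.02 to 1.05. ZEB1, at chr10:31607424-31818742, had no peak within 50 kb in any library, and the nearest to one of its starts was 222 kb (HET-1A) or 243 kb (KYSE-30) away in the long lists. Of all protein-coding genes, 15.0% and 12.5% had a nearest peak farther off, so that ZEB1 was not extreme.

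SNAI2 was the only member with a promoter peak in libraries of different lines. The HET-1A library 2 peak had 26 tags over a background of 5.22, a fold of 4.34 and a q-value of 5.19e-08, with its summit 1.81 kb upstream of the start. The KYSE-30 library 4 peak had 21 tags over 5.68, a fold of 3.29 and a q-value of 2.14e-03, with its summit 1.95 kb upstream. The 2 peaks overlapped, and both also stand within 3 kb of a start of the unnamed non-coding genes ENSG00000287788 and ENSG00000288761.

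They were not strong for their lists. Of the promoter peaks, 57.6% (HET-1A library 2) and 96.5% (KYSE-30 library 4) had a higher fold, and the relative background was 1.56 and 2.40. KYSE-30 library 6, the longer list of that line, had no peak within 50 kb of SNAI2. Just outside the window, 52.4 kb from the gene body, HET-1A library 2 and KYSE-30 library 6 each had a peak, with folds of 4.19 and 5.56.

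SNAI1, at chr20:48599517-48605423, had 1 peak, 37.0 kb downstream of its start in intergenic sequence, in HET-1A library 2. It had 33 tags, the most of the member peaks in that library, but over a background of 9.28. The fold was thus 3.31, and 81.4% of the peaks in the library were higher. The relative background there was 2.78, and the median over the peaks on its arm, 20q, was 2.15. On the same arm 47.9% of protein-coding genes had a promoter peak in this list, against 19.1% in KYSE-30 library 6. Copy number was not tested. In KYSE-30 library 6 the nearest peak to SNAI1 was 183 kb away, and the stretch of 620 kb without a peak around its start held 16 peaks of HET-1A library 2.

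**Figure D2:**
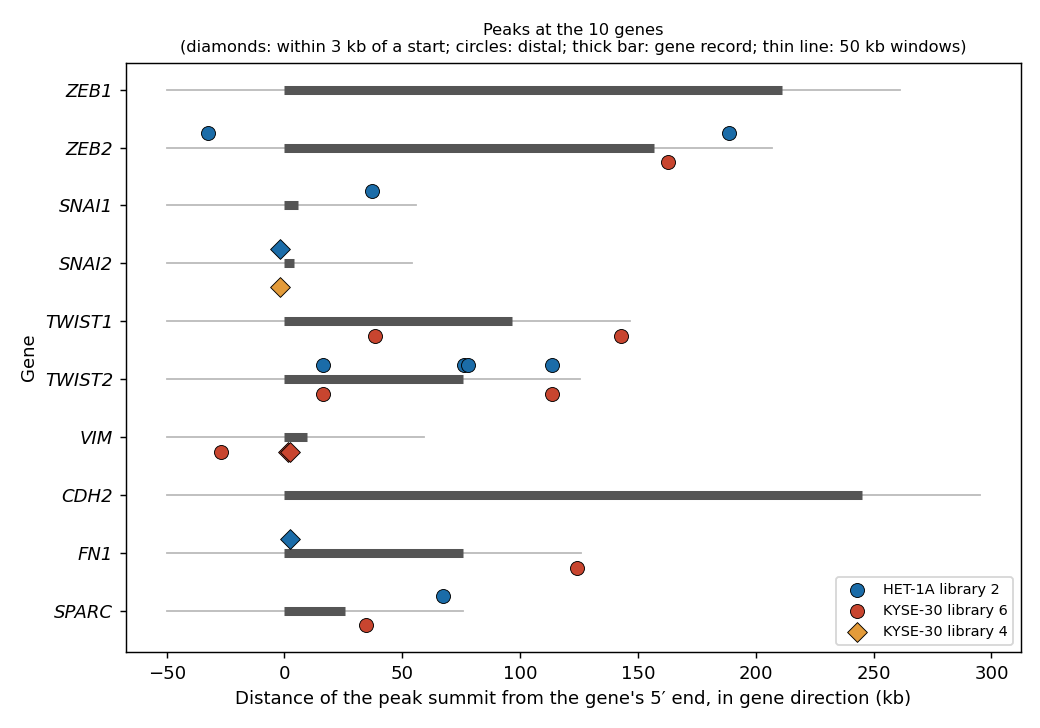
Position of each member peak relative to the 5′ end of its gene (kb, downstream to the right), with 1 row per member, the gene body and its extension by 50 kb drawn to scale, and symbols for library and peak kind. Only at SNAI2 and TWIST2 do peaks of different libraries coincide.

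TWIST1 had peaks in KYSE-30 library 6 alone. The higher, chr7:19014538-19014787, had 13 tags and a fold of 5.51 in an intron of HDAC9, 45.8 kb outside the body of TWIST1. The other, chr7:19118672-19118920, had 14 tags and a fold of 5.40 in an intron of the long annotated TWIST1 record, 37.8 kb downstream of the nearest start. Both stood near the middle of the list, with 49.3% and 51.8% of its peaks higher. For HET-1A library 2 the nearest peak to a TWIST1 start was 591 kb away, in a stretch of 2012 kb without a peak that held 5 protein-coding genes and 9 peaks of KYSE-30 library 6.

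TWIST2 had the most peaks of the members, 4 from HET-1A library 2 and 2 from KYSE-30 library 6, and the only regions called in both long lists. In the intronic region 16.2 kb downstream of its start, KYSE-30 library 6 had 28 tags over a background of 2.28 and HET-1A library 2 had 31 tags over 7.50. The folds were 8.84 (q-value 7.90e-18) and 3.76 (q-value 9.20e-08). Only 5.30% of the peaks of KYSE-30 library 6 were higher, while 66.7% were in HET-1A library 2, and the tags were 18.8 and 9.27 times the genome background of their library (1.49 and 3.34 tags per 200 bp). The relative background was 1.53 in KYSE-30 and 2.24 in HET-1A.

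The region 113 kb downstream of the TWIST2 start, 37.9 kb beyond the gene, gave 27 tags over 2.94 in KYSE-30 library 6 and 28 over 6.62 in HET-1A library 2. The folds were 7.11 and 3.81, with q-values of 3.83e-14 and 3.54e-07, and 17.9% and 65.4% of the peaks in the lists were higher. The relative background was 1.98 in both libraries. The remaining peaks of HET-1A library 2, chr2:239832520-239832838 and chr2:239834609-239834808, lay 0.290 and 2.38 kb beyond the gene with folds of 3.05 and 2.62. The latter was the lowest fold of the member peaks in that library, and 94.5% of its peaks were higher.

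**Figure D3:**
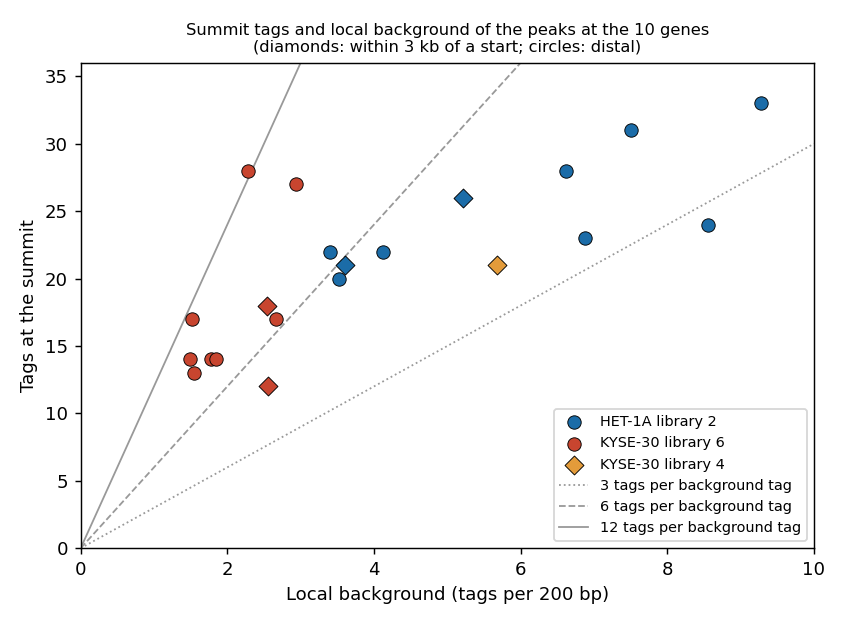
Tags at the summit (vertical axis) against the local background in tags per 200 bp (horizontal axis) for the 21 member peaks, coloured by library. At the 2 TWIST2 regions called in both long lists the unscaled tags were 28 (KYSE-30) and 31 (HET-1A), and 27 and 28, on a local background that was higher in HET-1A library 2, a library whose genome background is higher too.

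VIM, at chr10:17270240-17279592, had 3 peaks, all in KYSE-30 library 6. The stronger promoter peak, chr10:17272421-17272640, had 18 tags over 2.54, a fold of 5.37 and a q-value of 1.49e-07, with its summit 0.0800 kb upstream of an internal transcript start and 2.29 kb inside the gene. The weaker, chr10:17271806-17272152, had 12 tags, a fold of 3.65 and a q-value of 3.30e-03. Its summit lay 1.59 kb inside the gene, 0.176 kb upstream of an internal transcript start. Of the promoter peaks in the list, 55.5% and 97.8% were higher, and both peaks stand within 3 kb of a start of the antisense gene VIM-AS1. The third peak, chr10:17243364-17243613, with a fold of 5.28, lay 0.0120 kb from a start of the neighbour TRDMT1.

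The nearest peak to a VIM start lay 410 kb away in HET-1A library 2. VIM lay there in a stretch of 6781 kb without a peak, with 29 protein-coding genes, 18 of them CpG-rich, in which KYSE-30 library 6 had 18 peaks. Only 3.87% of protein-coding genes lay in a longer stretch. On the whole arm 10p, which also carries ZEB1, 16 of 155 protein-coding genes (10.3%) had a promoter peak in HET-1A library 2, against 25.2% in KYSE-30 library 6. The former was the second lowest share of the 42 units counted as arms. Arms were split at the longest run of unsequenced bases, which misplaced the boundary on chromosomes 13 and 14, where no member lies. VIM thus had no peak in a list with few peaks on the whole arm. The arm was looked at after the values were seen, and its copy number was not tested. The peak numbers in the list ran on across the stretch without a gap.

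CDH2, at chr18:25512843-25757910, was the member farthest from any peak. The nearest lay 1739 kb (HET-1A library 2) and 1874 kb (KYSE-30 library 6) from a start, where the median over protein-coding genes was 16.3 and 33.2 kb. Only 2.44% and 0.527% of genes had a nearest peak farther off. The stretch without a peak around CDH2 was 4785 kb long in the list of HET-1A, with 4 protein-coding genes, and 5852 kb in that of KYSE-30, with 16. The latter includes the desmosomal cadherin cluster with DSG3 and DSC3, which squamous epithelium is known to express. On 18q, 21.5% and 26.0% of protein-coding genes had a promoter peak in these libraries.

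**Figure D4:**
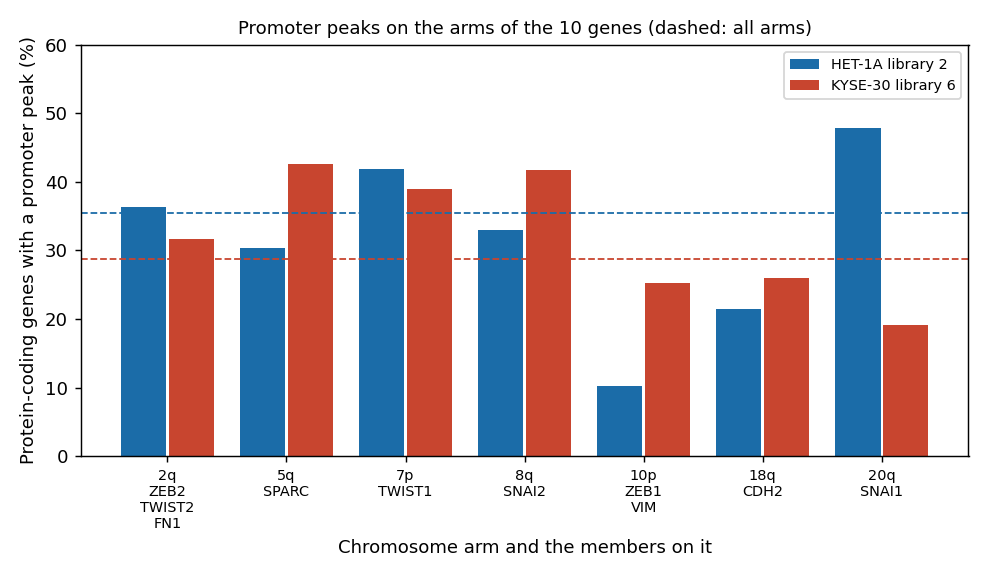
Percent of protein-coding genes with a promoter peak on each chromosome arm that carries a member, for HET-1A library 2 and KYSE-30 library 6, with all genes beside them (35.5 and 28.8%). The arm of ZEB1 and VIM, 10p, was low in HET-1A library 2 (10.3%), and the arm of SNAI1, 20q, was higher in HET-1A library 2 (47.9%) than in KYSE-30 library 6 (19.1%).

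FN1, at chr2:216225163-216300796, had the highest promoter peak of the members in HET-1A library 2. It lay in an FN1 intron 2.28 kb downstream of the start, within 3 kb of a start of the divergent FN1-DT, with 21 tags over 3.60, a fold of 4.78 and a q-value of 1.60e-07. Of the promoter peaks in that list, 42.0% were higher, so it was of middle rank. In KYSE-30 library 6 the only peak in the FN1 window, chr2:216176552-216176860, had 14 tags over a background of 1.49 and a fold of 6.03. It lay 0.0110 kb from a start of ATIC, an enzyme gene of purine synthesis, and 48.3 kb outside FN1, close to the edge of the window.

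SPARC, at chr5:151040657-151066536, had a distal peak in each long list, at different places. That of HET-1A library 2, chr5:150999349-150999568, had 22 tags over 4.12 and a fold of 4.49, and stood 41.1 kb outside the gene, nearer to the start of FAT2 (28.5 kb). That of KYSE-30 library 6, chr5:151031687-151031983, had 17 tags over 2.66 and a fold of 4.92. It stood 8.67 kb outside SPARC, in an exon of the unnamed ENSG00000260581 and within 3 kb of a start of that gene. Within the lists 41.0% and 66.5% of peaks were higher. The nearest peak outside the SPARC window was one of KYSE-30 library 6, 54.8 kb from the gene, with a fold of 5.10.

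Merging overlapping peaks gave 18 member regions, of which 8 were called in HET-1A library 2 but not KYSE-30 library 6, 8 the other way round and 2 in both, at TWIST2. The 2 are 11.1% of the 18, where 19.7% of all merged regions of these lists were called in both. Of all these merged regions, 49.5% were in the HET-1A list alone and 30.8% in the KYSE-30 list alone. Most regions of any kind were thus called in 1 of these lists only. No member region was called in both libraries of any line. Of all 23972 merged regions, 697 (2.91%) were so called for KYSE-30, 62 (0.259%) for KYSE-150 and 46 (0.192%) for HET-1A. The shorter list of each line limits these shares, with 1255, 259 and 168 peaks in the same order. Of the 16 distal peaks, 4 lay within 3 kb of a start of another gene, and for 6 the nearest protein-coding start belonged to a neighbour. In either long list 5 of the 10 member peaks were above the median fold of the list (4.22 for HET-1A and 5.47 for KYSE-30). The relative background was at least 1.5 at 6 of the 10 in the former and 5 of the 10 in the latter, and its median over all peaks was 1.45 and 1.44, so the members did not stand apart in this either.

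The motifs were counted within 200 bp around each summit. AP-1 matches were found in 6 of 10 member peaks of HET-1A library 2 (31.3 to 83.2%) and in 25.8% of all peaks, and E-boxes in 4 of 10 (16.8 to 68.7%) and in 19.2%. For KYSE-30 library 6, AP-1 was found in 4 of 10 (16.8 to 68.7%) against 31.4%, and the E-box in 2 of 10 (5.67 to 51.0%) against 17.4%. With 10 peaks a library, only the interval for AP-1 in HET-1A library 2 lay above the share of all peaks, and over whole peaks it did not (5 of 10, 23.7 to 76.3%, against 29.5%). GC boxes were found in 2 and 4 of 10, against 29.2 and 28.3%, and TEAD matches in 1 of 10 in each, against 12.8 and 15.9%. The SNAI2 promoter region, called in HET-1A library 2 and KYSE-30 library 4, held an E-box, the motif that SNAI proteins bind, as did 20% of all peaks in the latter list.

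Other genes of the program were described by promoter peaks, which genes of these lists had in the long lists only. Of 8 TGF-beta pathway genes, 2 had one in each of these libraries. For HET-1A they were the receptor gene TGFBR1 (fold 5.11) and SMAD3 (4.22 at the higher of 2 peaks), and for KYSE-30 the other receptor gene TGFBR2 (10.2, with 30 tags) and the ligand gene TGFB2 (4.31). These shares of 2 in 8 lay below the 35.5 and 28.8% of all protein-coding genes. Counts this small do not set the 8 genes apart from those percentages. Of 8 further transcription factors, HET-1A library 2 had 3, among them the forkhead genes FOXQ1 (4.90) and FOXC2 (4.73), and KYSE-30 library 6 had only TCF3, which HET-1A library 2 had too.

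Of 12 further mesenchymal genes, the HET-1A list had promoter peaks at 5 and the KYSE-30 list at 3. The receptor tyrosine kinase gene AXL (fold 4.90), the integrin gene ITGA5 (3.43) and THY1, with 17 tags, had one in HET-1A library 2 alone, and the actin-binding gene CALD1 (7.29) in KYSE-30 library 6 alone. S100A4 and TNC had one in both. Of 12 epithelial counterparts, 4 had one in the former and 5 in the latter list, with the tight junction gene OCLN (3.36) in the former alone and the splicing regulator gene ESRP1 (6.27) and the transcription factor gene GRHL2 (5.67) in the latter alone. Of all protein-coding genes, 35.5 and 28.8% had a promoter peak in these lists, and no test of the gene lists was run.

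**Figure D5:**
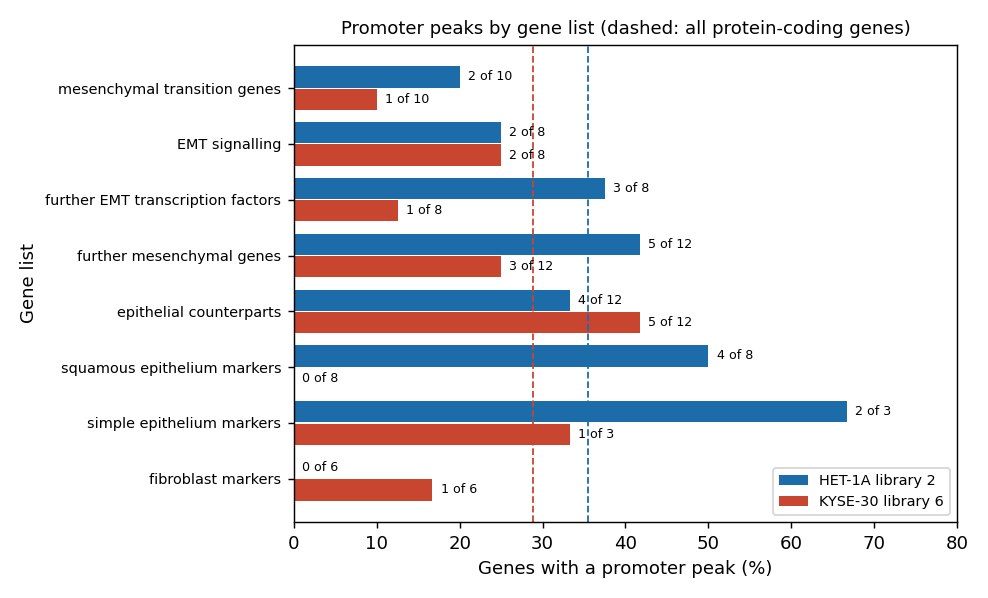
Percent of the genes of each list with a promoter peak in HET-1A library 2 and KYSE-30 library 6, with all protein-coding genes as lines (35.5 and 28.8%). The 10 members (2 and 1 genes) stood below these lines, and the squamous markers had 4 of 8 genes with a peak for HET-1A and 0 of 8 for KYSE-30.

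The labels name esophageal epithelium and squamous carcinoma. Of 8 squamous markers, 4 had a promoter peak in HET-1A library 2, namely DSP (fold 4.47), PERP (4.41), KRT6A (3.53) and KRT15 (3.26), and 0 in KYSE-30 library 6, while TP63, KRT5, KRT14 and DSG3 had none in any library. Of 3 simple-epithelium markers, 2 and 1 had one in the long lists of HET-1A and KYSE-30, and of 6 fibroblast markers 0 and 1, the latter COL3A1 at an internal start. The latter 4 genes thus had no promoter peak in any line, and distal peaks at the markers were not examined. With lists this small, 0 of 8 is not set apart from the 28.8% of all genes in KYSE-30 library 6.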

How the data were processed

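ATAC-seq peak lists of 6 libraries from 3 lines were analysed. The authors trimmed the reads, marked duplicates, mapped to hg19, left out blacklisted regions, corrected read positions for the Tn5 cut, used only fragments shorter than 100 bp, and ran the peak caller per library at a q-value of 0.05, without a control library or pooling. The submitters' processing notes name Bowtie2 2.3.3.1, Picard 2.2.1, bedtools 2.7.1 and MACS2 2.1.0.20160309. The deposited lists give a score (10 times −log10 q), a fold enrichment, which is a ratio, and −log10 of the p-value and q-value. Read totals are not used here, so depth is known only through the recovered background.

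Peaks were assigned by at least 1 shared bp with GENCODE 44 genes lifted to hg19. Tags and local background were solved from fold and p-value, which gave back −log10 p within 0.001 for 99.6 to 100% of peaks, and the procedure was tested on simulated data. Intervals of shares are Wilson 95% intervals and cover only the counting error. All members were named. Other genes of the lists were named where exactly 1 of the 2 long lists had a promoter peak, up to 3 a list and library, and other names were chosen after their values were seen. The members and lists were chosen with earlier results of these data known. Alternatives were windows of 20 and 100 kb, promoters of 1 kb, q-values under 0.01 and 0.001, equal lists of 168 peaks, an overlap of 50%, all annotated genes, whole peaks for motifs and each library left out. Python 3.11.15 with pandas 2.3.3, scipy 1.17.1 and pysam 0.24.0 was used. The sequence of 1 promoter peak of HET-1A is not reported here.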

Additional observations from a re-analysis of the deposited data

How the results depend on the processing

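Of 140 alternative values for 36 results, 112 stayed near the value reported (for a count, within 1.5 times), 28 moved and 0 reversed. Many that stayed near were counts of 0 in the 3 libraries without a member peak. Narrower windows, stricter q-values and shorter lists could not change those counts. All results here are counts or shares, which have no direction to reverse, so the tally is no measure of robustness. With windows of 20 kb, HET-1A library 2 had 5 member peaks at 3 members and KYSE-30 library 6 had 6 peaks. With 100 kb the peaks were 19 and 17, and KYSE-30 library 4 had 2 peaks at 2 members. Promoters of 1 kb left HET-1A library 2 and KYSE-30 library 4 with 0 members that had a promoter peak, since those of SNAI2 and FN1 lie farther out. KYSE-30 library 6 kept its 1 member, VIM. At a q-value under 0.001 KYSE-30 library 4 had 0 peaks, 0 members with any peak and 0 with a promoter peak. With lists held to their 168 best peaks, member peaks, members with any peak and members with a promoter peak were 0 in every library. The counts thus depend on list length. The 168 peaks of HET-1A library 1 came within 50 kb of only 0.980% of protein-coding genes, so 0 at this length says little about the members. Leaving out each library in turn gave 10 to 18 member regions, with 10 without KYSE-30 library 6 and 11 without HET-1A library 2. The split of the long lists (8, 8 and 2 regions) was 7, 7 and 2 at a q-value under 0.001 and 6, 8 and 2 with the longer list shortened to the length of the other. Over all annotated genes, 17.3% in HET-1A library 2 and 13.8% in KYSE-30 library 6 had a promoter peak. No paired analysis was possible because the lines share no library numbers and no result comes from a test. A gene without a listed peak is not shown to be closed. At genome background the weakest listed peak had 8 to 13 tags, depending on the library, and sites on a higher local background needed more.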
